A study of Mus musculus with 6 samples.

Results

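The genes described are 10 feedback inhibitors of mitogen-activated protein (MAP) kinase signalling. They are 7 phosphatase genes (Dusp1, Dusp2, Dusp4, Dusp5, Dusp6, Dusp10 and Dusp16) and 3 Sprouty and Spred genes (Spry1, Spry2 and Spred1). They were chosen by name, with earlier results of these data known. Rows were matched through their Entrez number, and all 10 were found among the 25206 rows of the table. Expression was measured on single-colour arrays in mouse group 2 innate lymphoid cell (ILC2) lines of the C57BL/6J strain, grown with IL-33 and IL-2 (10 ng/ml each). ILC2s are tissue-resident innate lymphocytes that lack antigen receptors and make type 2 cytokines when IL-33 reaches them. All cells carried a lentiviral CRISPR vector with GFP and were sorted as GFP-positive at day 6 after transduction. The 3 control arrays came from cells with a guide that has no target, and the 3 knockout arrays from cells with a guide against Cbfb, the gene of the subunit that stabilises RUNX proteins on DNA. The cells are a cultured line and not tissue, the labels do not give the number of guides or clones, and they do not say whether replicates are separate cultures. P-values therefore measure only the spread between these arrays, which may be technical.

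When a receptor activates the Ras, Raf, MEK and ERK chain, ERK switches on transcription factors that induce the genes of its own inhibitors. Dual-specificity phosphatases (DUSPs) remove both activating phosphates from MAP kinases, some of them acting on ERK and others mainly on the stress kinases p38 and JNK. Sprouty and Spred proteins act upstream, where they hold back Ras and Raf activation. Transcripts of several of these inhibitors are widely used as a readout of recent pathway activity, which these arrays did not measure directly.

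Values below are on a log2 scale, so that a difference of 1 is a 2-fold change, and each difference is knockout minus control from limma, with p adjusted by Benjamini-Hochberg over all 25206 rows and called under 0.05. Cbfb itself averaged 8.65 ± 0.11 in control and 7.83 ± 0.12 in knockout (SD, n = 3 for each; limma adjusted p = 0.00205). A guide-made lesion need not remove a transcript, so this value does not measure the edit. Correlations between arrays were 0.9946 to 0.996 within groups and 0.988 to 0.9908 between them, and the number of arrays limits the precision. Of 12 ILC2 markers 10 had a row, and Gata3, Klrg1, Il5 and Il13 read 10.52 or higher on every array. The mean level of the 10 was 9.97 to 10.1 across control arrays and 9.97 to 10.0 across knockout arrays, with 1 gene higher (Rora) and 4 lower (Icos, Il7r, Il5 and Id2). Among rows whose mean lies above the median of all row means, as for all 10, 7.75% were called lower and 10.3% higher. Over all rows the shares were 4.24% and 5.51%. Rora was low in control, with a mean of 3.32 that lies below the median of all row means (3.595), and averaged 5.53 in knockout. Il5 lost its call whichever of the 6 arrays was dropped (adjusted p 0.0701 to 0.116), and Id2 held it only without control replicate 1 (adjusted p 0.0453 to 0.126).

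Of the 10 genes, 5 fell in the knockout, none rose and 5 did not pass. Dusp5, Dusp10, Dusp2, Dusp16 and Dusp6 fell, with differences from -1.92 to -0.38 on the log2 scale. Among all rows 4.24% were called lower and 5.51% higher, and among the rows whose mean lies above the median row mean, as the means of all 10 do, 7.75% were called lower and 10.3% higher. Because the 10 genes were chosen with earlier results of these arrays known, their count is not independent evidence of its direction. The median difference of the 10 genes was -0.39, against -0.007 over all rows. Control and knockout arrays were fully separated for 7 of the 10, all of them DUSP genes, while 27.5% of all rows were separated in this way. The separated share was not computed for rows above the median row mean alone, so 27.5% is not a matched background for these genes. At an unadjusted p under 0.05 in limma the counts were 6 lower (Dusp4 added) and 1 higher (Dusp1), with no Sprouty or Spred gene among them. Over all 25206 rows 2748 were lower and 3032 higher at this unadjusted threshold. At an adjusted p under 0.01 the count was 3 lower genes (Dusp2, Dusp5 and Dusp10), and without control replicate 2 it was also 3. At an adjusted p under 0.1 the counts were 5 lower and 1 higher (Dusp1).

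**Figure D1:**
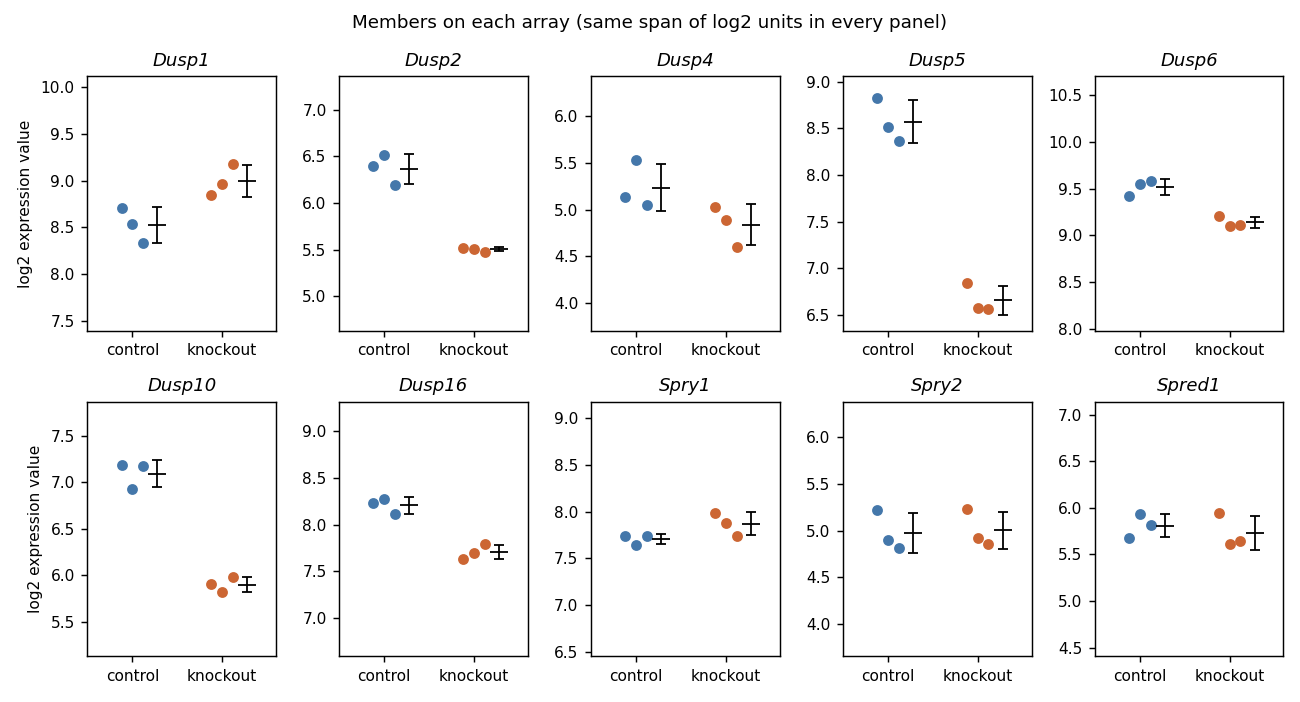
Log2 expression values of the 10 genes, with a point for each array (3 control, blue; 3 knockout, orange) and the mean with its SD in black. Every panel spans the same number of log2 units, so that the drop of Dusp5 from 8.57 to 6.66 can be set against the overlapping points of Spry2.

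Promoter sequences of 3 inducible nuclear phosphatase genes are shown because their values parted: Dusp5 had the largest fall of the 10, Dusp2 fell less, and Dusp1 had the most positive difference. Each window runs from 250 bases before to 50 bases after the RefSeq start site (GRCm38.p6) and is written 5′ to 3′ on the gene's strand. Capitals mark matches to the serum response element core (CC, 6 bases that are each A or T, GG) and to the cyclic AMP response element core TGACG, which reads CGTCA on the other strand. The windows are chr19:53528895-53529194 on the plus strand for Dusp5, chr2:127335909-127336208 on the plus strand for Dusp2 and chr17:26508423-26508722 on the minus strand for Dusp1.
Dusp5: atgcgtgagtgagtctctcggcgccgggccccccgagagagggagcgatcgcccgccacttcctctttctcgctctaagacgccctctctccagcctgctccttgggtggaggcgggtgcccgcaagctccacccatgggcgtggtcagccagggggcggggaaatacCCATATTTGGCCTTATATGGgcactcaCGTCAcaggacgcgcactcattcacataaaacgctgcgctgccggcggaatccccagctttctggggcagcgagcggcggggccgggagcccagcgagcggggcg
Dusp2: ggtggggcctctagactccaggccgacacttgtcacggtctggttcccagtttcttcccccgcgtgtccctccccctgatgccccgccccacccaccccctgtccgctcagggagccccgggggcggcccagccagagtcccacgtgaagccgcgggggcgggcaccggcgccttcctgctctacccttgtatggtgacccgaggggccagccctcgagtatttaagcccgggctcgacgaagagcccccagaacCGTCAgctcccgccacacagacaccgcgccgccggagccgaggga
Dusp1: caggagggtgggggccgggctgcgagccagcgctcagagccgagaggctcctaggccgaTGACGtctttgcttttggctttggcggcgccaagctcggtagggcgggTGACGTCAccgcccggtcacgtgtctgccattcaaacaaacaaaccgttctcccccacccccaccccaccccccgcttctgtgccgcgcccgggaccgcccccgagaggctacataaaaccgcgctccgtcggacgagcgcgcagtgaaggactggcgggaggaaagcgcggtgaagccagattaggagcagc

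The Dusp5 window held 2 abutting serum response element cores, at -82 to -73 and -72 to -63 from the start site. Serum response factor binds this element and takes ERK signals through its ETS-family partners. Of all 32851 windows of this length 1.63% held at least 1 such core, and of the 9 windows found for the 10 genes that of Dusp5 was the only match. No window was available for Dusp4. The TGACG core stood in 4 of the 9 windows (Dusp1, Dusp2, Dusp5 and Dusp16) and in 20.8% of all windows. Its full form, in which TCA follows, stood in the Dusp1 window at -143 to -136 and in 1.79% of all windows.

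The RUNX motifs TGTGGT and TGCGGT, searched on both strands, were in none of the 9 windows and in 22.4% of all. Only these forms were searched. Forms with C as the first base were not counted, and the Dusp5 window above holds CGTGGT and the Dusp1 window CGCGGT. The absence of a match therefore does not show that a window lacks RUNX sites. The AP-1 motif TGANTCA was likewise in none of the 9 and in 7.81% of all. The ETS motif GGAAGT was in the Dusp5 window and in 23.8% of all windows. A broad NF-kB pattern (GGG, any 5 bases, CC) was in 8 of the 9 and in 50.8% of all, and it overlapped the upstream serum response element core of Dusp5. These matches describe letters in a short window and are not measured binding sites. The windows of Dusp10, Dusp6, Spry1, Spry2 and Spred1 held none of the RUNX, AP-1, ETS, serum or cyclic AMP response element patterns in the forms searched.

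Of the 4 genes of inducible nuclear phosphatases, Dusp5 and Dusp2 fell and Dusp1 and Dusp4 did not pass. Dusp5 (Entrez gene 240672) encodes a nuclear phosphatase that acts on ERK and also anchors it in the nucleus. It read 8.83, 8.52 and 8.37 in control and 6.84, 6.57 and 6.56 in knockout. Every knockout array lay at least 1.53 below the lowest control array. The difference was -1.92 (standard error 0.14, limma adjusted p = 0.000227), which leaves 26.5% of the control signal (95% interval 21.3% to 32.9%). Among all rows it ranked as number 18 from the most negative difference.

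Dusp2 (Entrez gene 13537), a nuclear phosphatase gene best known from activated lymphocytes, read 6.40, 6.51 and 6.19 in control and 5.52, 5.51 and 5.48 in knockout. The knockout arrays lay within 0.04 of each other and all below the controls. It fell by 0.86 on the log2 scale (standard error 0.10, limma adjusted p = 0.00173), or 1.82-fold.

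Dusp1 (Entrez gene 19252) encodes the stress- and glucocorticoid-inducible phosphatase MKP-1, which acts on p38, JNK and ERK. It read 8.71, 8.54 and 8.33 in control and 8.85, 8.96 and 9.18 in knockout. All knockout arrays were above all control arrays, by a margin of 0.14, the reverse of the order in Dusp5 and Dusp2. The difference of 0.47 (95% interval 0.18 to 0.76) missed the threshold (limma adjusted p = 0.0562). It passed in 4 of 14 alternative fits, with adjusted p from 0.00988 to 0.189 over the 14.

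Dusp4 (Entrez gene 319520) encodes another inducible nuclear phosphatase, MKP-2. It read 5.13, 5.53 and 5.05 in control and 5.03, 4.89 and 4.60 in knockout. The groups were separated by 0.02 only, and control replicate 2 stood above the other control arrays. The difference of -0.40 (95% interval -0.76 to -0.038) did not pass (limma adjusted p = 0.173), nor did it in any of the 14 alternatives (adjusted p 0.0912 to 0.406).

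Dusp6 (Entrez gene 67603) encodes the cytoplasmic phosphatase MKP-3, which is specific for ERK and is a standard readout of ERK activity. It read 9.42, 9.55 and 9.58 in control and 9.21, 9.10 and 9.11 in knockout. The groups did not overlap, with 0.21 between the nearest arrays. Dusp6 fell by 0.38 on the log2 scale (standard error 0.085, limma adjusted p = 0.0297), or 1.30-fold, to 77.0% of the control signal. The call was not stable: dropping a single array ended it in 5 of 6 cases (adjusted p 0.037 to 0.107), and only without control replicate 1 did it hold.

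The phosphatases that act mainly on p38 and JNK both fell. Dusp10 (Entrez gene 63953), the gene of MKP-5, read 7.18, 6.93 and 7.17 in control and 5.91, 5.82 and 5.98 in knockout. The gap between the groups, 0.95, was larger than the range within either of them. It fell by 1.19 on the log2 scale (standard error 0.099, limma adjusted p = 0.000453), to 43.8% of the control signal (95% interval 37.4% to 51.4%). Dusp16 (Entrez gene 70686), the gene of MKP-7, read 8.23, 8.28 and 8.11 in control and 7.63, 7.70 and 7.79 in knockout. All its knockout arrays were below all control arrays, 0.32 apart at the nearest. Dusp16 fell by 0.50 on the log2 scale (standard error 0.088, limma adjusted p = 0.011), or 1.41-fold. Without control replicate 2 it just missed the threshold (adjusted p = 0.0511; range over the 14 alternatives 0.000639 to 0.0511).

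The Sprouty and Spred genes did not pass. Their intervals cover only the spread between these arrays, which may be technical. Spry1 (Entrez gene 24063), which encodes an inhibitor that sits between receptor and Ras, read 7.74, 7.64 and 7.74 in control and 7.99, 7.88 and 7.74 in knockout. The groups met at 7.74. Its difference was 0.16 (95% interval -0.051 to 0.38; limma adjusted p = 0.361).

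Spry2 (Entrez gene 24064), its close relative, read 5.22, 4.90 and 4.81 in control and 5.23, 4.92 and 4.86 in knockout, with the groups overlapping throughout. The difference was 0.03 (95% interval -0.30 to 0.35; adjusted p = 0.945 by limma), and its sign turned when the columns were quantile-normalised again. Spred1 (Entrez gene 114715) encodes the protein that brings neurofibromin to the membrane to switch Ras off. It read 5.68, 5.93 and 5.82 in control and 5.94, 5.61 and 5.64 in knockout, again overlapping, with a difference of -0.08 (95% interval -0.35 to 0.19; adjusted p = 0.763 by limma). For Spred1 and Spry2 the intervals do not include a fall as large as that of Dusp16 (-0.50), and the lower bound of Spry1 was -0.051.

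The genes were also averaged by array. Relative to the control mean, the 7 DUSP genes averaged 0.054, 0.049 and -0.103 in control replicates 1, 2 and 3 and -0.647, -0.71 and -0.689 in knockout replicates 1, 2 and 3. The 3 Sprouty and Spred genes averaged 0.049, -0.008 and -0.041 in control replicates 1 to 3 and 0.222, -0.028 and -0.084 in knockout replicates 1 to 3. Knockout replicate 1 was thus the array on which these 3 genes stood highest, and each of them had its highest knockout value there.

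**Figure D2:**
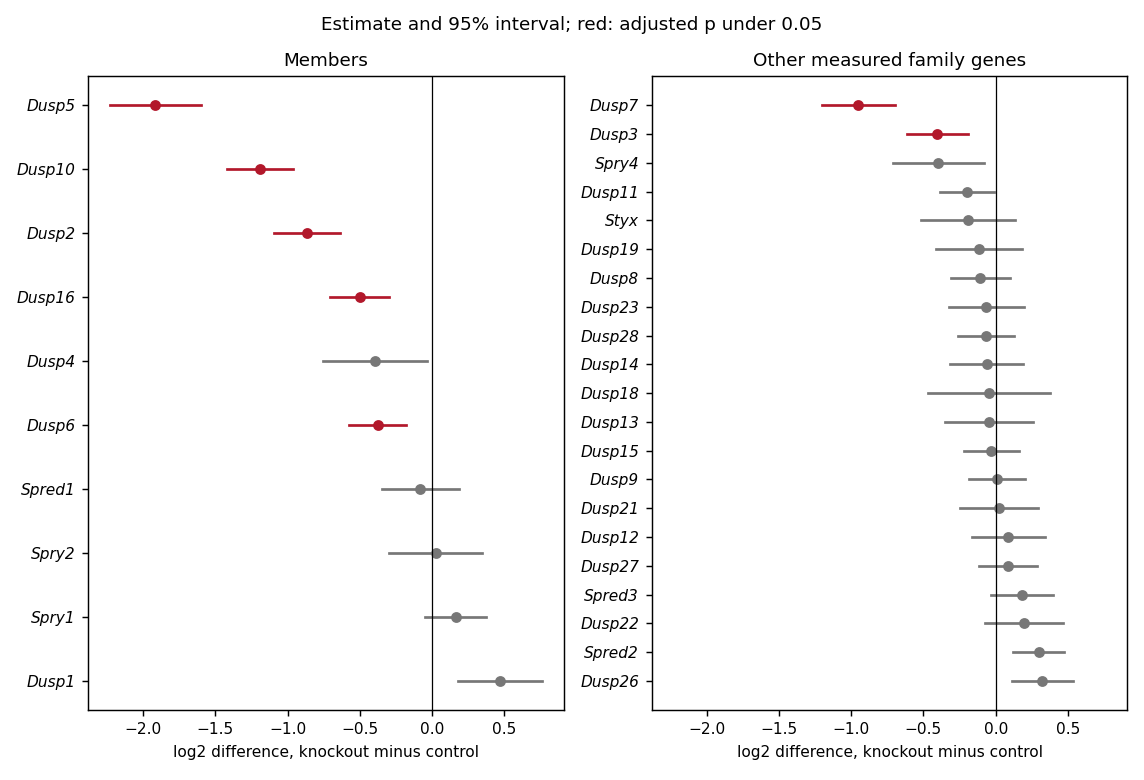
Log2 difference, knockout minus control (x axis), of the 10 genes (left) and of the 21 other measured family genes (right), with 95% intervals from limma. Red marks an adjusted p under 0.05: 5 of the 10 genes on the left, and Dusp7 and Dusp3 on the right.

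Other members of the same families mostly did not pass. Among 18 other DUSP genes with a row there were 2 falls, 16 genes that did not pass and no rise (limma; at an unadjusted p under 0.05, 3 lower and 1 higher), with a median of -0.055, and 7 of the 18 had a mean below the median row mean. Over all rows 4.24% were called lower and 5.51% higher. Dusp7, the gene of a cytoplasmic ERK phosphatase related to Dusp6, read 9.14, 8.78 and 8.83 in control and 8.01, 7.98 and 7.91 in knockout. Its fall of 0.95 on the log2 scale (limma adjusted p = 0.00177) passed in all 14 alternatives. Dusp3, the gene of the small atypical phosphatase VHR, went from 7.01 ± 0.091 to 6.61 ± 0.10 (limma adjusted p = 0.0316), and of the 6 arrays only knockout replicate 3 could be dropped without losing the call. Dusp26 differed by 0.32 (limma adjusted p = 0.0697) at means of 2.80 and 3.12, and Dusp11 by -0.20 (limma adjusted p = 0.183).

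Of 4 other Sprouty and Spred genes 3 had a row and none passed in limma, with 1 higher and 1 lower at an unadjusted p under 0.05. Spred2 read 7.12, 7.04 and 7.07 in control and 7.34, 7.36 and 7.42 in knockout, a difference of 0.30 that just missed the threshold (limma adjusted p = 0.051). Over the 14 alternatives its adjusted p ran from 0.0122 to 0.164 and passed 6 times, never with an array left out. Spry4, which ERK signalling commonly induces, differed by -0.40 (95% interval -0.71 to -0.084; limma adjusted p = 0.119), and Spred3 by 0.18 (limma adjusted p = 0.307). Spry3 was not analysed here.

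In the kinase chain that these inhibitors act on, calls went in both directions. Of 20 measured genes from receptor adaptors to ERK effectors 2 rose, 3 fell and 15 did not pass (median -0.042), where 9.75% of all rows and 18.1% of rows above the median row mean were called in either direction. The groups were separated in 11 of the 20, against 27.5% of all rows, a share not computed for rows above the median row mean alone. The other 6 genes of this list were not analysed here. Rasgrp1, which encodes an exchange factor that loads Ras with GTP downstream of diacylglycerol, rose 2.58-fold from 6.93 ± 0.086 to 8.29 ± 0.064 (limma adjusted p = 0.000135). Map3k8, the gene of the kinase TPL2 that links NF-kB signalling to MEK, fell by 0.66 on the log2 scale (limma adjusted p = 0.0023).

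Ksr1, a scaffold for Raf, MEK and ERK, fell from 9.63 ± 0.06 to 9.18 ± 0.11 (limma adjusted p = 0.0171). Rps6ka3, the gene of the ERK-activated kinase RSK2, fell by 0.51 on the log2 scale (limma adjusted p = 0.0274). The other rise, named after its value was seen, was that of Mapk7, the gene of ERK5 (0.34; limma adjusted p = 0.0461). Ksr1 lost its call without control replicates 1 or 3 or knockout replicate 3, Rps6ka3 without control replicates 2 or 3 or knockout replicates 2 or 3, and Mapk7 without any of the 6 arrays. The count for this list was 2 without control replicate 3 or without knockout replicate 3 and 3 without control replicates 1 or 2 or knockout replicate 2.

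Other brakes on Ras and ERK, outside the DUSP and Sprouty families, held 21 measured genes, of which 5 rose, 1 fell and 15 did not pass (median 0.07). Among rows above the median row mean 10.3% were called higher and 7.75% lower. Errfi1, a feedback inhibitor of receptor tyrosine kinases that ERK can induce, fell from 6.93 ± 0.19 to 5.94 ± 0.12 (1.98-fold, limma adjusted p = 0.00186). Sh2b3, which encodes the cytokine receptor adaptor LNK, rose from 5.02 ± 0.053 to 5.61 ± 0.11 (limma adjusted p = 0.00611). Nf1, the gene of the Ras GTPase-activating protein neurofibromin, rose from 7.25 ± 0.12 to 7.75 ± 0.04 (limma adjusted p = 0.0119).

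Cblb, the gene of a ubiquitin ligase that restrains lymphocyte activation, rose by 0.49 (limma adjusted p = 0.0186), a call lost without control replicates 2 or 3 or knockout replicate 2. The other rises, named after their values were seen, were Dab2ip (0.50) and Rgs1 (0.37), of which Dab2ip held its call only without control replicate 1 while Rgs1 lost it whichever of the 6 arrays was dropped. With control replicate 2, control replicate 3 or knockout replicate 2 left out, the list's count became 2 higher and 1 lower, as it did with the replicate number as a block.

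In the p38 and JNK chains, the targets of Dusp10 and Dusp16, 6 of 22 measured genes rose, 3 fell and 13 did not pass (median 0.072), beside the 18.1% called among rows above the median row mean and 9.75% among all rows. The groups were separated in 17 of the 22, against 27.5% of all rows, again without a share for rows above the median row mean alone. Gadd45b and Gadd45g encode stress-inducible activators of the p38 pathway. Gadd45b read 8.78, 9.00 and 8.85 in control and 7.41, 7.52 and 7.41 in knockout, a 2.69-fold fall (limma adjusted p = 0.000142). Gadd45g read 9.66, 9.83 and 9.75 in control and 8.41, 8.51 and 8.53 in knockout, a 2.40-fold fall (limma adjusted p = 0.000184). The third fall, named after its value was seen, was that of Mapkapk2, the gene of a p38-activated kinase (-0.35; limma adjusted p = 0.0346), and dropping any of the 6 arrays ended this call. Among the rises were 2 genes of p38 isoforms, Mapk12 (5.35 ± 0.17 to 6.39 ± 0.12, limma adjusted p = 0.00121) and Mapk11 (7.12 ± 0.19 to 7.86 ± 0.15, limma adjusted p = 0.00833).

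Falls were more frequent in a list of ERK-responsive transcripts and of the ETS and serum response factor genes that control them. Of 31 measured 17 fell, 1 rose and 13 did not pass, with a median of -0.43, close to that of the 10 inhibitor genes. Beside this count, 7.75% of rows above the median row mean were called lower and 10.3% higher (4.24% and 5.51% of all rows). Among the 13, named after their values were seen, were Fos (0.22), Etv5 (0.19) and Etv4 (-0.18). This list was assembled with earlier results of these arrays known, so its count is not independent evidence of its direction. Ier3, an early gene that modulates ERK dephosphorylation, fell from 9.86 ± 0.10 to 7.93 ± 0.11 (limma adjusted p = 7.06e-05). Nr4a1, an orphan nuclear receptor gene, fell by 1.92 on the log2 scale (limma adjusted p = 0.000315), as did Phlda1, a pleckstrin-homology gene, by 1.01 (limma adjusted p = 0.000331) and the AP-1 gene Fosl2 by 1.32 (limma adjusted p = 0.000512). The single rise was Plaur (0.37; limma adjusted p = 0.0456), named after its value was seen and lost without control replicates 2 or 3 or any knockout array. Relative to the control mean the 31 genes averaged 0.101, -0.005 and -0.096 in control replicates 1, 2 and 3 and -0.641, -0.564 and -0.562 in the knockout arrays.

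**Figure D3:**
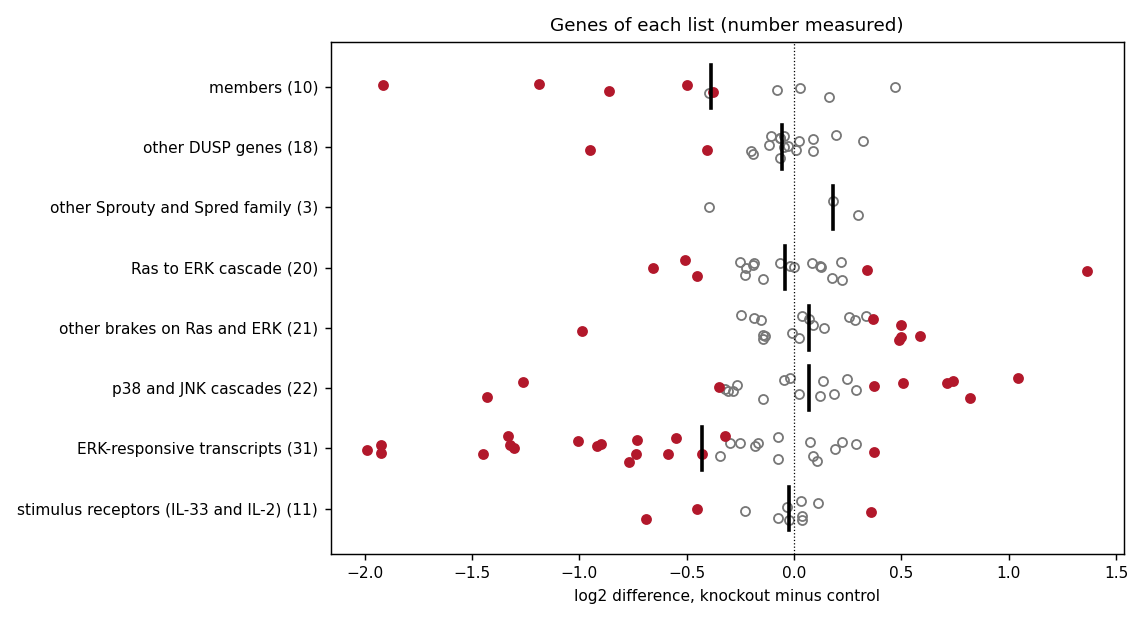
Log2 difference, knockout minus control (x axis), of every measured gene in the 10-gene set and 7 related lists, with filled red points for an adjusted p under 0.05, open grey points for the others and a black bar at each median. The medians of the 10 genes (-0.39) and of the ERK-responsive transcripts (-0.43) lie left of the other 6, which run from -0.055 to 0.18.

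Of 11 measured components of the IL-33 and IL-2 receptor pathways, the stimuli in the medium, 1 rose, 2 fell and 8 did not pass (median -0.023). Among rows above the median row mean, as all 11 are, 18.1% were called in either direction, and among all rows 9.75%. The transcription factor gene Stat5a, which IL-2 receptors activate, went from 9.02 ± 0.061 to 8.33 ± 0.17 (limma adjusted p = 0.00557). The receptor chain gene Il2rb fell by 0.45 on the log2 scale (limma adjusted p = 0.00891). Stat5b rose by 0.36 (limma adjusted p = 0.0267), a call that survived only the loss of knockout replicate 1 among the 6 arrays, and Il2ra differed by -0.23 (limma adjusted p = 0.132). Il1rl1, the IL-33 receptor gene, was not analysed here.

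The rows most like Dusp5 were sought among 11841 named rows above the median row mean, by the root mean square distance between profiles over the 6 arrays, each taken relative to its own control mean. The nearest was Nr4a1 at 0.104, followed by the purinergic receptor gene P2ry2 (0.177), the cytokine gene Il10 (0.186), Ier3 (0.21) and the triglyceride synthesis gene Dgat1 (0.224). Nr4a1 read 8.18, 8.06 and 7.62 in control and 6.13, 6.06 and 5.90 in knockout, and like Dusp5 it was highest in replicate 1 of both groups. No gene of the 10 passed as higher, so no such search was made for a rise.

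Markers of other cell types were often low: 5 of 10 T cell, 5 of 5 B cell, 5 of 7 macrophage and dendritic cell, 7 of 8 mast cell and basophil and 5 of 6 NK cell and ILC1 markers had a mean below the median row mean. Of 10 T cell markers 1 fell (Trac, by 0.61 on the log2 scale), 5 were lower at an unadjusted p under 0.05 in limma and 6 had separated groups. Among all 25206 rows 4.24% were called lower, 2748 rows were lower at that unadjusted p, and 27.5% were separated. The mean level of the T cell list was 3.96 to 4.06 in control arrays and 3.79 to 3.91 in knockout arrays. Of 5 B cell markers none passed in limma, with 1 higher at an unadjusted p under 0.05 (mean levels 2.53 to 2.61 and 2.61 to 2.68). Of 7 macrophage and dendritic cell markers Itgax fell by 1.04 on the log2 scale (3.47 to 3.64 and 3.23 to 3.39). Cpa3 fell by 2.91 among 8 mast cell and basophil markers (2.91 to 3.01 and 2.49 to 2.70), while Prf1 fell by 0.49 among 6 NK cell and ILC1 markers (3.67 to 3.91 and 3.50 to 3.77), a call lost without control replicates 2 or 3. These values carry no detection calls, so no marker can be said to be at 0, and the part of other cells in the falls of the DUSP genes was not tested. In a bulk sample a smaller share of cells that express a gene and less RNA per cell cannot be told apart.

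**Figure D4:**
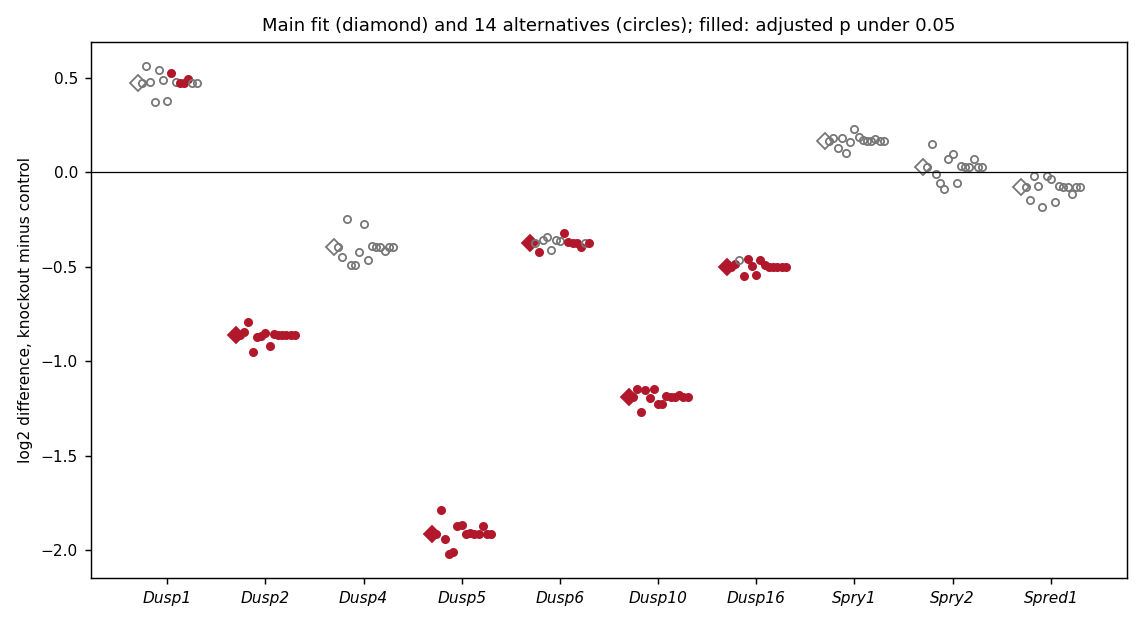
Log2 difference, knockout minus control (y axis), of each of the 10 genes under the fit reported above (diamond) and 14 alternative fits (circles), filled where the adjusted p was under 0.05. Dusp2, Dusp5 and Dusp10 are filled throughout, Dusp6 in 7 of the 14 circles, Dusp16 in 13 and Dusp1 in 4.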

How the data were processed

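Total RNA of 6 sorted ILC2 samples (3 control, 3 knockout) was biotin-labelled for 1-colour arrays, per the labels' protocols. The authors' deposited table holds log2 expression values, a scale read from the values (0.66 to 12.51) and not stated. RMA and limma 3.14.4 stand in the submitters' processing notes, with their roles unstated. Quantile normalisation, a usual step of RMA, would hide a change shared by most genes, and whether changes at low values are compressed was not tested. Array medians were 3.57 to 3.63. Of 25206 rows 23185 had 1 gene symbol, all matched by Entrez number to the RefSeq table of GRCm38.p6, used with its promoter windows.

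Values were used as deposited and without a filter, in limma 3.58.1 (R 4.3.3), with 1 coefficient for the group, moderated two-sided tests (4.1 prior degrees of freedom) and a 0.05 threshold on the adjusted p over all rows. The median residual SD was 0.131. In simulated data with 25206 rows, changes of 0.5, 1 and 2 on the log2 scale were put into 67, 67 and 66 rows. They were recovered in 13.4%, 83.6% and 98.5% of these, with 6 false calls among 136, so small changes can be missed. The reported fit called 2457 rows, and the adjustment is stricter where fewer rows change. These shares are therefore not the sensitivity of the reported fit.

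The 10 genes and all lists were chosen with earlier results of these data known. Lists were described by counts and medians. Named were the 10 genes, Cbfb, up to 4 genes per list with the smallest adjusted p, and the 5 rows nearest to the called gene of smallest adjusted p. Also tried were a replicate block, each array left out in turn, quantile normalisation again, median centring, rows above the median row mean (3.595), a trended and robust prior, array weights, no moderation, rows with 1 symbol, and thresholds of 0.01 and 0.1.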

Additional observations from a re-analysis of the deposited data

How the results depend on the processing

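No direction of a called gene turned under any alternative fit of the 55 genes examined across settings. Of 140 alternative values of the 10 genes, 124 kept direction and side of the threshold, 8 lost a call (Dusp6 and Dusp16), 4 gained it (Dusp1) and 4 turned the sign of the uncalled Spry2. Leaving out 1 array gave 3 to 5 called genes of the 10, 29 to 36 of the 126 genes in related lists (43 in the reported fit) and 1307 to 1837 of all rows (2457 in the reported fit). A threshold of 0.01 gave 3, 24 and 966, and the test without moderation gave 26 list genes and 1254 rows, against 4 of the 10. The replicate number as a block gave 4 of the 10, losing Dusp6 (adjusted p = 0.0811), 31 list genes and 1745 rows. Same-numbered arrays deviated together with correlations of 0.025, 0.007 and 0.054 only, so the number was not taken to pair them, and not every array correlated best with its own number. By list, the block gave 1 call among the other DUSP genes (2 in the reported fit), 3 in the Ras to ERK chain (5) and 3 among the other brakes (6). Without moderation there were 1 among the other DUSP genes, 2 in the Ras to ERK chain, 5 in the p38 and JNK chains (9) and 11 among ERK-responsive transcripts (18). At a threshold of 0.01 the other DUSP genes gave 1, the Ras to ERK chain 2, the other brakes 2 and the p38 and JNK chains 4. At a threshold of 0.1, 6 of the 10 genes were called, 5 lower and 1 higher (Dusp1). Spred2, also uncalled in the reported fit, was called as higher at that threshold. Signal over background is unknown without detection calls.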
